A study of Schizosaccharomyces pombe with 16 samples.

Results

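Nitrogen starvation at 37 °C was examined in fission yeast by setting the wild-type strain beside the temperature-sensitive mutant fcp1-452. The comparison used 4 of the 16 arrays of the series: wild type with nitrogen, wild type without it, fcp1-452 with nitrogen and fcp1-452 without it, all at 37 °C and all from the first of the series' 2 sets of arrays. They were chosen by their titles and source names. Each of these 4 groups had 1 array in that set, so the change within a strain had no replicate check. The array measured polyadenylated RNA of Schizosaccharomyces pombe with 4999 probe sets, and each deposited value was relative to the median of that probe set over the 8 arrays of its set. The wild type was L972. The mutant carried fcp1-452, named in the labels without its mutation or its mating type. The medium was EMM2, a synthetic minimal medium, or EMM2 without its nitrogen source (EMM2-N). The label for wild type with nitrogen says that the cells were growing logarithmically, while the label for the mutant with nitrogen at 37 °C says only that they were incubated. The sources used here do not say for how long cells were kept at 37 °C or starved.

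Fcp1 is a phosphatase that removes phosphate from the carboxy-terminal tail of the largest subunit of RNA polymerase II, which lets the polymerase be reused for further rounds of transcription. When nitrogen runs out, fission yeast cells stop growing, divide without growth, and arrest before DNA replication. They then either mate and enter meiosis or become quiescent, a resting state from which they can return to division. This switch is known to raise the uptake of alternative nitrogen sources, autophagy and the mating programme, and to lower ribosome production, under the control of the TOR kinases, protein kinase A and the transcription factor Ste11.

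Starvation at 37 °C moved more probe sets in the mutant than in the wild type on the deposited scale. A probe set is said here to have risen or fallen where its ratio without nitrogen was at least 2-fold above or below that with nitrogen in the same strain, between 1 array and 1 array. In wild type 694 of 4999 probe sets rose (13.9%) and 737 fell (14.7%). In fcp1-452, 1031 rose (20.6%) and 941 fell (18.8%). The order of the strains reversed when the arrays were quantile normalized, which forces all arrays to 1 distribution. In wild type 793 then rose and 798 fell, and in fcp1-452 603 rose and 620 fell. The median change over all probe sets was near 0 in both strains, -0.05 in wild type and 0.02 in fcp1-452 on the log2 scale, while the SD over probe sets was 1.12 and 1.29. In cultures measured in bulk, fewer cells with a transcript and less of it per cell cannot be told apart.

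The strains shared 813 of these changes, which was 56.8% of the wild type's 1431 and 41.2% of the mutant's 1972. The shared changes comprised 420 rises (8.4% of all probe sets) and 393 falls (7.86%). A change is called strain-dependent below where 1 strain passed 2-fold, the other did not, and the changes themselves lay at least 2-fold apart. By that definition 160 probe sets rose in wild type only (3.2%), 163 fell in wild type only (3.26%), 361 rose in fcp1-452 only (7.22%) and 297 fell in fcp1-452 only (5.94%). A further 44 moved at least 2-fold in opposite directions (0.88%). Another 708 probe sets passed 2-fold in 1 strain alone with changes less than 2-fold apart, and these are not counted as differing. At 26 °C, on arrays that share no sample with the 4 described here, the same definitions gave 568 shared rises (11.4%) and 661 shared falls (13.2%), together 91.5% of the wild type's changes and 86.5% of the mutant's. Only 9 were strain-dependent there: 3 rises (0.06%) and 2 falls (0.04%) in wild type, and 3 rises (0.06%) and 1 fall (0.02%) in fcp1-452. Across probe sets the correlation between the strains' changes was 0.627 at 37 °C and 0.968 at 26 °C, over 4999 probe sets that are not independent replicates.

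**Figure D1:**
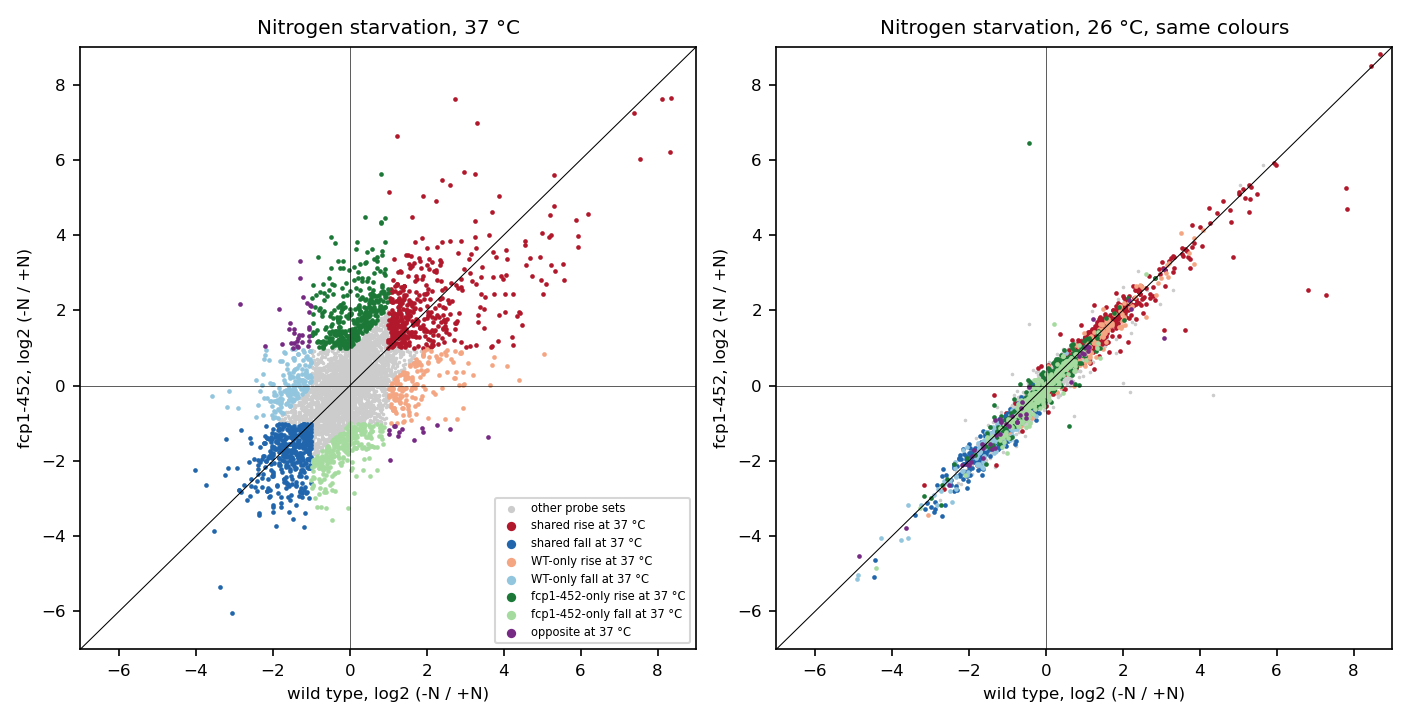
Starvation change of each of 4999 probe sets in wild type (x axis) and fcp1-452 (y axis), as log2 of the ratio without nitrogen over that with nitrogen, at 37 °C (left) and at 26 °C (right). Colours mark the class at 37 °C in both panels, grey points are the remaining probe sets and the diagonal line marks equal change; the cloud is wide at 37 °C (SD of the difference 1.05) and narrow at 26 °C (0.269).

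The arrays with nitrogen in the first set were close to duplicates of replicate 1 of the second set. Over the 4 groups with nitrogen, their log2 values differed with an SD of 0.0572 to 0.0742 and 0 probe sets were 2-fold apart, and each such pair was counted as 1 sample. Replicate 2 of the second set was a separate measurement. It differed from the first-set array with an SD of 0.603 in wild type and 0.727 in fcp1-452 at 37 °C, and 391 (7.82%) and 697 (13.9%) of the probe sets were 2-fold apart. When replicate 2 stood for the array with nitrogen, 1034 of the 1431 wild-type changes (72.3%) remained 2-fold in the same direction and 40 turned sign. In fcp1-452, 1539 of 1972 (78%) remained and 67 turned sign. Genes are named below only where their class was the same against replicate 2, unless it is said that they were chosen after their values were seen.

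A limma fit over 12 samples gave each change a standard error (SE). The groups with nitrogen, n = 2 each, supplied the spread, and the single arrays without nitrogen, n = 1 each, were assumed to vary alike. After Benjamini-Hochberg adjustment over 4999 probe sets, limma called a starvation change for 2600 probe sets in wild type (52%) and for 3180 in fcp1-452 (63.6%). In wild type 1188 of them were higher without nitrogen (23.8%) and 1412 lower (28.2%), and in fcp1-452 the counts were 1616 (32.3%) and 1564 (31.3%). It called a difference between the strains' changes for 1931 (38.6%), of which 1044 were higher in fcp1-452 (20.9%) and 887 lower (17.7%). The count of differences depended on single libraries: it was 1226 without wild type replicate 1 with nitrogen at 37 °C, 1195 without its replicate 2, and 2932 without replicate 1 of fcp1-452 with nitrogen at 37 °C. Without wild type replicate 1 the count of wild-type changes was 1625. Without the replicate number as a block, limma called 1267 changes in wild type, 2027 in fcp1-452 and 325 differences. With quantile normalization before the fit it called 79 differences and 1283 changes in fcp1-452.

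The transcripts that rose in both strains at 37 °C included genes for the use of other nitrogen and carbon sources and the meiotic regulator mei4. The gene urg1, induced by uracil and nitrogen starvation, had a ratio of 0.141 with nitrogen and 1.83 without it in wild type, and of 0.167 and 4.1 in fcp1-452. It was thus low with nitrogen and high without it in both strains, with log2 changes of 3.70 and 4.62. mei4, which encodes the forkhead transcription factor of the meiotic divisions, went from 0.334 to 3.2 in wild type and from 0.737 to 11.5 in the mutant. The changes of 3.26 and 3.96 were not called different (limma difference 0.67 ± 0.31 SE, Benjamini-Hochberg adjusted p = 0.135). The other leading shared rises were mel1 (an α-galactosidase), urg2 (a uracil phosphoribosyltransferase), pcm2, mmf2, isp5 (an amino acid permease), prt2, ght7 and eno102, and their smaller change of the 2 strains lay between 3.09 and 3.68.

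Sharing a direction did not mean sharing a size. The hexose transporter gene ght7 stood at 0.759 with nitrogen and 46.2 without it in wild type, and at 0.647 and 8.32 in fcp1-452. The strains were alike with nitrogen, and the starved wild type was the highest of the 4 arrays. Its change was 5.93 in wild type and 3.68 in fcp1-452, and limma called the difference (-2.24 ± 0.37 SE, adjusted p = 0.00841). The enolase gene eno102 had the same order, with 27.8 in starved wild type against 6.01 in the starved mutant. Its changes were 5.55 and 3.23, with a limma difference of -2.16 ± 0.22 SE (adjusted p = 0.00337). In all, 189 of the 813 shared changes differed by at least 2-fold between the strains.

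Nitrogen uptake genes rose together in both strains, with higher changes in the mutant for several of them. Of the 16 permeases and transporters on the arrays, 9 rose in wild type and 11 in fcp1-452, 8 of them in both, and 0 fell in either. Among all probe sets 13.9% rose in wild type and 20.6% in fcp1-452. The median change was 1.37 in wild type and 2.11 in the mutant, against -0.05 and 0.02 over all probe sets. The ammonium transporter gene amt1 read 0.317 with nitrogen and 1.68 without it in wild type, and 0.0336 and 1.5 in fcp1-452. The starved arrays were close to each other, and the mutant with nitrogen was the lowest of the 4. Its changes were 2.41 and 5.48, a limma difference of 2.87 ± 0.39 SE (adjusted p = 0.00545). isp5 also had its lowest ratio in the mutant with nitrogen, with 0.43 and 4.09 in wild type and 0.0316 and 1.57 in fcp1-452. Its starved arrays were not close, with a gap of -1.38 between the strains. limma did not call its difference (1.61 ± 0.58 SE, adjusted p = 0.0719). For isp4, an oligopeptide transporter gene, the larger change was in wild type. The strains were level with nitrogen at 0.227 and 0.229, and starved wild type stood at 2.58 against 1.17. limma called 6 differences higher in the mutant and 1 lower on this list, against 20.9% and 17.7% of all probe sets.

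The enzymes of nitrogen metabolism behaved alike. Of 11 probe sets, 7 rose in wild type and 10 in fcp1-452, against 13.9% and 20.6% of all probe sets. The strains shared 6 of these rises, and the medians were 1.33 and 1.76. isp7, which encodes a dioxygenase linked to TOR signalling, read 0.545 and 2.05 in wild type and 0.0443 and 1.46 in the mutant. As with amt1, the mutant with nitrogen stood far below the other arrays. uga1, which encodes 4-aminobutyrate aminotransferase, had equal ratios with nitrogen (0.458 and 0.469) and a higher ratio in starved wild type (3.19) than in the starved mutant (1.53). Its changes were 2.80 and 1.71 (limma difference -0.90 ± 0.19 SE, adjusted p = 0.0159).

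Autophagy, the breakdown of cytoplasm in the vacuole that recycles nitrogen, rose in both strains for 9 genes. Of 23 probe sets for autophagy and vacuolar proteolysis, 13 rose in wild type and 10 in fcp1-452 (6 under quantile normalization), and the medians were 1.10 and 0.82. The shares that rose over all probe sets were 13.9% and 20.6%. atg1, the kinase that starts autophagy, read 0.299 and 1.44 in wild type and 0.676 and 4.76 in fcp1-452. The mutant was the higher strain in both media, and the changes of 2.27 and 2.82 were not called different (limma difference 0.53 ± 0.22 SE, adjusted p = 0.102). Its partner atg13 changed by 2.01 and 2.47 and the vacuolar protease gene isp6 by 2.35 and 2.30. atg5, part of the machinery that attaches Atg8 to membranes, read 0.978 and 1.27 in wild type but 0.875 and 0.4 in the mutant. It was the 1 gene of this list that fell in fcp1-452 (change -1.13), against 0.38 in wild type (limma difference -1.61 ± 0.27 SE, adjusted p = 0.00916). The ubiquitin-like gene atg12, chosen after its values were seen, changed by 1.36 in wild type and -0.27 in fcp1-452.

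Regulators of meiosis and a pheromone kinase rose in both strains, while other pheromone signalling genes differed between the strains in both directions. mei2, an RNA-binding protein gene needed to start meiosis, read 0.291 and 2.64 in wild type and 0.248 and 1.71 in fcp1-452, with changes of 3.18 and 2.78. pat1, the kinase that holds meiosis back, changed by 3.42 and 2.43, and spk1, the pheromone MAP kinase, by 2.28 and 3.68. Against replicate 2 the changes of spk1 were 2.25 and 1.29, so its strain order turned, and its limma difference was 0.13 ± 1.08 SE (adjusted p = 0.935). Of the 19 genes of Ste11 and pheromone signalling, 6 rose and 2 fell in wild type, while 8 rose and 6 fell in fcp1-452, with 4 rises and 2 falls shared. By the strain-dependent definition 2 rose in wild type only, and 2 rose and 3 fell in fcp1-452 only. The 2 that rose in fcp1-452 only, named after their values were seen, were ste7 (0.99 and 2.45) and esc1 (0.48 and 2.87). The falls in fcp1-452 numbered 2 under quantile normalization, and 18.8% of all probe sets fell in that strain, while 20.6% rose. In wild type 13.9% of all probe sets rose and 14.7% fell. gpa1, the pheromone-receptor G protein subunit, read 1.02 and 2.15 in wild type and 0.984 and 0.703 in the mutant. It rose in wild type only, with changes of 1.08 and -0.49 (limma difference -1.88 ± 0.29 SE, adjusted p = 0.00724). fus1, a formin for cell fusion, fell in fcp1-452 only, from 1.88 to 0.618, against 0.815 and 1.21 in wild type. ste11 itself, named after its values were seen, changed by 1.08 in wild type and -0.06 in the mutant at 37 °C, and by 2.92 and 2.73 at 26 °C.

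Genes of meiotic recombination and chromosome pairing rose in similar numbers in the strains, with 2 genes in common. Of 26, 8 rose in wild type and 7 in fcp1-452, where 3 rose under quantile normalization, and 4 rose and 7 fell against replicate 2. Since 13.9% of all probe sets rose in wild type and 20.6% in fcp1-452, the wild-type count stood further above its share. rec6, needed to make meiotic DNA breaks, rose in wild type only: it read 0.772 and 4.96 there and 0.675 and 1.05 in fcp1-452. rec8, the meiotic cohesin subunit, changed by 1.67 and 0.60, a difference limma did not call (-1.63 ± 0.54 SE, adjusted p = 0.0601). eme1, a subunit of the Mus81 endonuclease, rose in fcp1-452 only, from 0.386 to 2.83, against 0.986 and 1.24 in wild type. sgo1, the protector of meiotic cohesion, fell in fcp1-452 only, from 1.35 to 0.416.

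Mating-type markers were read beside these genes, because the labels do not give the mutant's mating type. At 26 °C the P-cell gene map2, a pheromone precursor, changed by -0.43 in wild type and 6.46 in fcp1-452, and all 4 P-cell probe sets rose in fcp1-452 against 2 in wild type. The M-cell pheromone gene mfm1 changed by 7.83 and 4.69 at 26 °C. Of the 10 M-cell probe sets, 7 rose and 0 fell there in wild type, and 6 rose and 1 fell in fcp1-452. Named after their values were seen, mam2 changed by 4.35 and -0.25 and mfm2 by 0.60 and -1.08 at 26 °C. Among all probe sets 12.6% and 12.9% rose at that temperature. At 37 °C map2 changed by 0.53 and 1.59. By its first probe set mfm1 went from 0.678 to 23.3 in wild type and from 0.205 to 1.32 in fcp1-452, changes of 5.10 and 2.69. mfm3 changed by 4.40 and 1.96 by its first probe set, and 6 of the 10 M-cell probe sets rose in each strain, 5 of them in both. The shares of all probe sets that rose at 37 °C were 13.9% in wild type and 20.6% in fcp1-452. The pheromone genes mfm1, mfm2 and mfm3 are related and their probe sets may cross-react. Yet mfm2 did not follow mfm1 at 37 °C, with changes of -0.82 in wild type and 3.43 in fcp1-452. Its ratio in fcp1-452 with nitrogen, 0.0103, was near the lowest ratio of 0.01. Ratios carry no level, so the markers could not be summed, and their part in the strain differences of mating genes was not tested.

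The shared falls included transporters for metals and nucleotide sugars and subunits of RNA polymerases I and III. hut1, a UDP-galactose transporter gene, read 3.68 with nitrogen and 0.317 without it in wild type, and 1.65 and 0.113 in fcp1-452. Its changes of -3.54 and -3.87 were not called different (limma difference -0.48 ± 0.20 SE, adjusted p = 0.107). The zinc transporter gene zrt1 read 3.28 and 0.615 in wild type and 1.37 and 0.197 in the mutant. The mutant was lower than wild type in both media, and the changes were -2.42 and -2.80 (limma difference -0.34 ± 0.18 SE, adjusted p = 0.187). The copper transporter gene ctr4 changed by -2.37 and -3.40, and hem13, an enzyme of haem synthesis, by -2.27 and -2.45. Other leading shared falls were alp31 (a tubulin-folding cofactor), uba3 (a subunit of the NEDD8-activating enzyme), bsu1, laf2, rpc17 (RNA polymerase III) and mug151, with changes of at least -2.27 in wild type and -2.37 in fcp1-452 in size.

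On the first-set arrays, genes of ribosome production fell more often than probe sets at large in wild type, and about as often in the mutant. Of 48 probe sets for ribosome biogenesis and RNA polymerase I, 16 fell and 1 rose in wild type, while 9 fell and 8 rose in fcp1-452, with 8 falls shared. Over all probe sets 14.7% fell in wild type and 18.8% in fcp1-452. The count of rises in fcp1-452 was 4 against replicate 2 and 0 under quantile normalization. The medians were -0.63 and -0.26. limma called 18 differences higher in the mutant and 1 lower, against 20.9% and 17.7% of all probe sets. The helicase gene has1 read 1.42 and 0.322 in wild type and 1.53 and 0.581 in the mutant, with changes of -2.14 and -1.39. rpa43, an RNA polymerase I subunit, changed by -1.65 and -1.75 with no called difference (limma difference -0.20 ± 0.22 SE, adjusted p = 0.507). By contrast rpa34, another subunit of that polymerase, fell in wild type only, from 1.52 to 0.294, while the mutant arrays read 1.18 and 0.821 (limma difference 1.97 ± 0.22 SE, adjusted p = 0.00379). nhp2, of the snoRNA particles that modify ribosomal RNA, likewise fell in wild type only (-1.10 and 0.24). The 120 ribosomal protein probe sets moved little: 1 fell in wild type and 4 in fcp1-452 (3 and 9 against replicate 2), with medians of -0.10 and 0.17.

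RNA polymerase III genes moved in both directions. The subunit gene rpc31 read 2.08 and 0.55 in wild type and 1.45 and 0.109 in fcp1-452, so it fell in both strains and further in the mutant (limma difference -1.88 ± 0.18 SE, adjusted p = 0.00279). The initiation factor gene brf1 rose in both, by 1.62 and 3.19 (limma difference 1.63 ± 0.27 SE, adjusted p = 0.00894). maf1, the repressor of RNA polymerase III, stood at 0.726 and 0.985 in wild type and at 0.698 and 4.82 in the mutant. The strains were level with nitrogen and the starved mutant stood apart from the other 3 arrays. Of the 18 probe sets, 4 rose and 4 fell in wild type, and 5 rose and 4 fell in fcp1-452. On so short a list these counts were not far from the shares of all probe sets. Those were 13.9% and 14.7% in wild type, and 20.6% and 18.8% in fcp1-452.

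**Figure D2:**
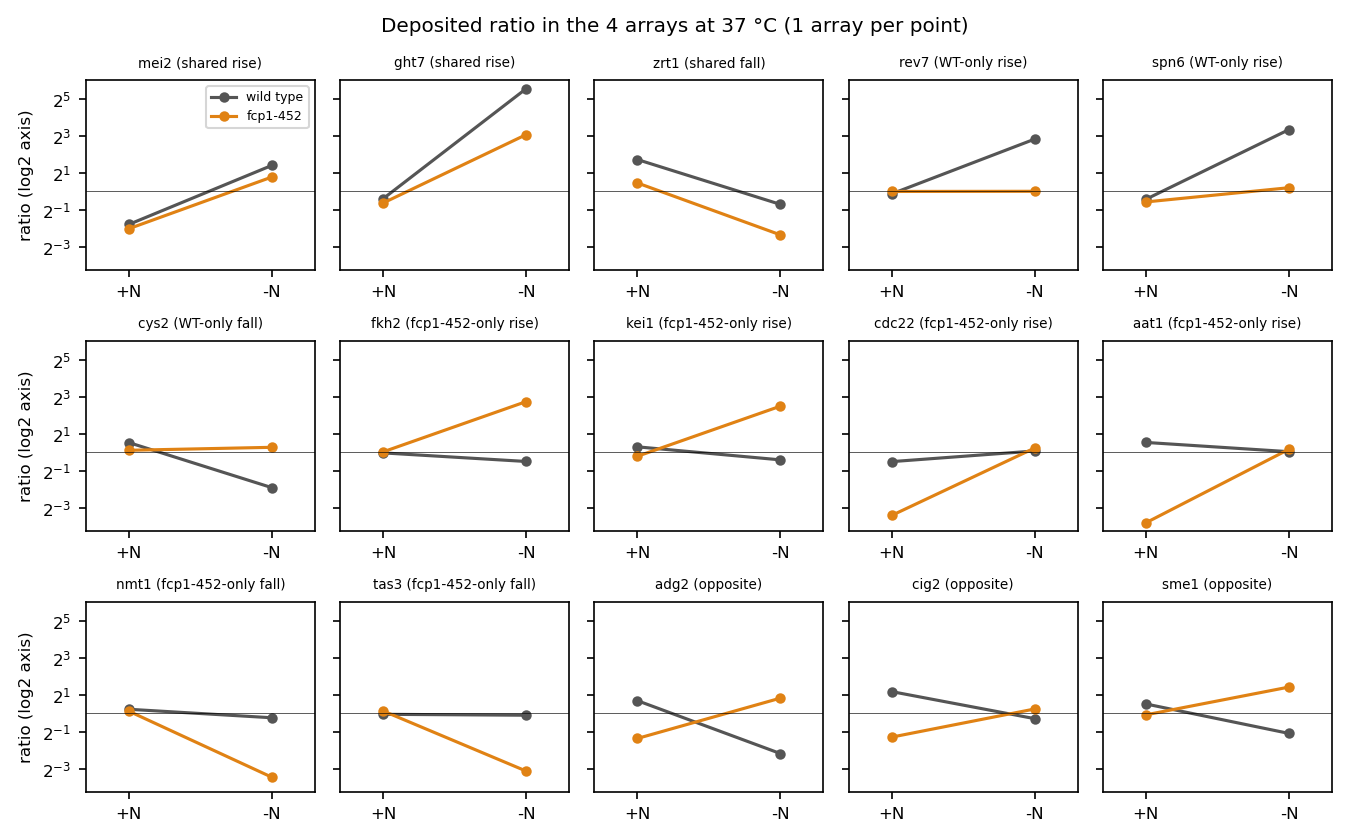
Deposited ratio (log2 axis) of 15 genes in the 4 arrays at 37 °C, with nitrogen (+N) and without it (-N), wild type in grey and fcp1-452 in orange; each point is 1 array and has no error bar. rev7 and spn6 rise in wild type alone, fkh2 and kei1 in the mutant alone, while cdc22 and aat1 rise in the mutant from a low ratio with nitrogen.

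The rises seen in wild type only were led by septation, DNA repair and meiotic genes. rev7, a subunit of the DNA polymerase that copies past DNA damage, read 0.911 with nitrogen and 7.04 without it in wild type, and 0.997 and 1.003 in fcp1-452. Its change was 2.95 in wild type and 0.01 in the mutant (limma difference -3.01 ± 0.25 SE, adjusted p = 0.00252). At 26 °C it rose in both strains, and the smaller change, in fcp1-452, was 2.86. spn6, a meiotic septin gene, read 0.745 and 10.05 in wild type and 0.674 and 1.15 in the mutant (changes of 3.75 and 0.77, and of 3.16 and 3.21 at 26 °C). cdc16, part of the GTPase-activating complex that restrains septation, rose in wild type from 0.905 to 2.42 and went from 1.1 to 0.572 in fcp1-452. The gluconeogenic gene fbp1 changed by 1.53 and -0.69, and there the mutant was already higher with nitrogen (1.91 against 0.785). The other leading members were atd3 (an aldehyde dehydrogenase), mug191, rec6 and htd2, with changes of 1.17 to 2.94 in wild type and -0.67 to 0.64 in fcp1-452.

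The falls seen in wild type only held genes of sulphur amino acid synthesis, RNA processing and protein glycosylation. cys2, homoserine O-acetyltransferase, read 1.44 and 0.268 in wild type and 1.08 and 1.21 in fcp1-452. It had changes of -2.43 and 0.16 (limma difference 2.38 ± 0.31 SE, adjusted p = 0.00487), and at 26 °C it fell in both strains, by -2.02 and -2.30 on the log2 scale. prp43, a helicase that releases spent spliceosomes, read 0.996 and 0.332 in wild type and 1.35 and 1.7 in the mutant, with changes of -1.58 and 0.33. ssb3, a subunit of the single-strand DNA-binding complex RPA, read 3.7 and 0.739 in wild type and 1.05 and 0.948 in fcp1-452, so there the strains differed with nitrogen rather than without it. swp1 (an oligosaccharyltransferase subunit), its8 (GPI anchor synthesis), ppr7 (a mitochondrial pentatricopeptide protein), dph4 (diphthamide synthesis) and rpa34 completed the leading 8, with changes of -1.14 to -2.37 in wild type and -0.52 to 0.76 in fcp1-452.

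The rises seen in fcp1-452 only formed the largest of the strain-dependent classes on the deposited scale (116 probe sets under quantile normalization, against 248 wild-type-only falls) and included transcription factors, secretory pathway genes and cell-cycle genes. fkh2, a forkhead transcription factor of mitotic genes, read 0.981 and 0.712 in wild type and 1.02 and 6.66 in fcp1-452. The starved mutant stood alone, with changes of -0.46 and 2.71 (limma difference 3.22 ± 0.19 SE, adjusted p = 0.00226). kei1, a subunit of inositol phosphorylceramide synthase, read 1.23 and 0.756 in wild type and 0.864 and 5.62 in fcp1-452. The SNARE gene bet1 changed by 0.19 and 3.81, and rba50, an RNA polymerase II-associated protein, by -0.49 and 3.12. sap1, a DNA-binding protein of replication fork barriers, changed by -0.66 and 2.45, and mug89 by -0.98 and 2.32.

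For 2 of the 8 leading members the mutant's change began from a low ratio with nitrogen. The amino acid transporter gene aat1 read 1.45 and 1.03 in wild type and 0.0723 and 1.13 in fcp1-452. The strains met without nitrogen and lay far apart with it. The gap with nitrogen was -4.32 on the first-set arrays and -3.97 on replicate 2. Replicate 2 did not define the class, but genes were named only where their class was the same against it. Its gap is thus no separate support, here or for ams2. ams2, a GATA-type factor that drives histone transcription in S phase, read 1.05 and 0.932 in wild type and 0.236 and 2.08 in fcp1-452, and its gap with nitrogen was -2.16 and, on replicate 2, -1.66. cdc22, the large subunit of ribonucleotide reductase, had the same arrangement, reading 0.708 and 1.05 in wild type and 0.095 and 1.18 in the mutant.

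All 13 histone probe sets rose in fcp1-452 and 1 rose in wild type. The counts were 12 and 3 under quantile normalization and 10 and 2 against replicate 2. The median change was 1.77 in the mutant and 0.41 in wild type, while at 26 °C it was -0.40 in wild type and -0.51 in fcp1-452, and 0 of the 13 rose there in either strain. On the first-set arrays at the deposited scale, the range over the 13 was -0.06 to 1.10 in wild type and 1.19 to 2.34 in fcp1-452. Under quantile normalization and against replicate 2 the ranges of the strains overlapped. Among all probe sets 13.9% rose in wild type and 20.6% in fcp1-452. pht1, which encodes the variant histone H2A.Z, read 0.936 and 1.16 in wild type and 0.942 and 4.77 in the mutant, with a limma difference of 2.42 ± 0.40 SE (adjusted p = 0.00845). For the core histone H4 gene hhf1, by its first probe set, the ratios were 0.859 and 1.14 in wild type and 0.288 and 1.43 in fcp1-452, so part of that change lay in a lower ratio with nitrogen. The median gap of the 13 between the strains with nitrogen was -0.72 on the first-set arrays and -0.74 on replicate 2. limma called 9 of the 13 differences, all higher in the mutant, against 20.9% of all probe sets called higher. Histone gene copies are near-identical in sequence and their probe sets may cross-react, so the 13 are not independent.

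Genes of S phase onset changed in fcp1-452 in shares near those of all probe sets. Among 63 probe sets for DNA replication and targets of the MBF transcription factor, 3 rose and 11 fell in wild type, and 13 rose and 15 fell in fcp1-452, with medians of -0.21 and 0.12. Over all probe sets 13.9% rose and 14.7% fell in wild type, and 20.6% and 18.8% in fcp1-452. limma called 18 differences higher and 10 lower in the mutant, against 20.9% and 17.7% of all probe sets. Beside cdc22 and ams2, the B-type cyclin gene cig2 read 2.26 and 0.821 in wild type and 0.412 and 1.18 in fcp1-452. It fell in wild type and rose in the mutant (limma difference 2.81 ± 0.31 SE, adjusted p = 0.0036), with the mutant the lowest array with nitrogen. swi3, of the fork protection complex, fell in both strains and further in the mutant (-1.20 and -2.78), and sld5, of the GINS complex, fell in fcp1-452 only (-0.87 and -2.05).

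Hexose transport and galactose use rose more widely in the mutant. Of 14 probe sets, 4 rose and 1 fell in wild type, and 12 rose and 0 fell in fcp1-452, with medians of 0.59 and 2.25. Among all probe sets 13.9% rose and 14.7% fell in wild type, and 20.6% rose and 18.8% fell in fcp1-452. Under quantile normalization 3 rose in wild type and 8 in fcp1-452, and against replicate 2 the counts were 7 and 10. The difference was at least 2-fold and higher in fcp1-452 for 10 of the 14 and lower for 1 (ght7), against 15.7% and 14.5% of all probe sets. limma called 7 differences higher and 1 lower, against 20.9% and 17.7% of all probe sets. ght3, a gluconate transporter of the hexose transporter family, read 1.01 and 7.86 in wild type and 0.233 and 12.02 in fcp1-452. ght8 stood at 0.884 and 0.745 in wild type and at 1.01 and 2.7 in the mutant, with a limma difference of 1.64 ± 0.18 SE (adjusted p = 0.00361). The galactokinase gene gal1 read 2.35 and 1.09 in wild type and 0.197 and 0.907 in the mutant, so it fell in the one and rose in the other toward similar ratios.

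Regulators of growth by nutrients rose more often in the mutant as well. Of 45 genes of TOR, protein kinase A and quiescence control, 13 rose and 3 fell in wild type, and 29 rose and 3 fell in fcp1-452, with 12 rises shared. Over all probe sets 13.9% and 20.6% rose. The medians were 0.45 and 1.42 on the deposited scale and 0.62 and 0.94 under quantile normalization, and limma called 18 differences higher and 1 lower in fcp1-452, against 20.9% and 17.7% of all probe sets. The shared rises included rst2, a transcription factor restrained by protein kinase A (1.69 and 2.79), klf1, a zinc finger factor of quiescence (2.42 and 1.52), the adenylate cyclase pathway gene git1 (1.92 and 1.77) and the iron regulator fep1 (2.11 and 1.97). Those seen in fcp1-452 only included the protein kinase gene cek1, reading 1.16 and 1.03 in wild type and 1.6 and 7.34 in fcp1-452, and git11, a G protein subunit gene of glucose sensing (-0.95 and 1.66). Named after their values were seen, both kinase genes tor1 and tor2 rose in both strains (1.31 and 1.42 for tor1, 1.59 and 1.42 for tor2). The protein kinase A regulatory and catalytic subunit genes cgs1 and pka1 rose in fcp1-452 only (-0.02 and 3.09 for cgs1, 0.61 and 1.98 for pka1).

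**Figure D3:**
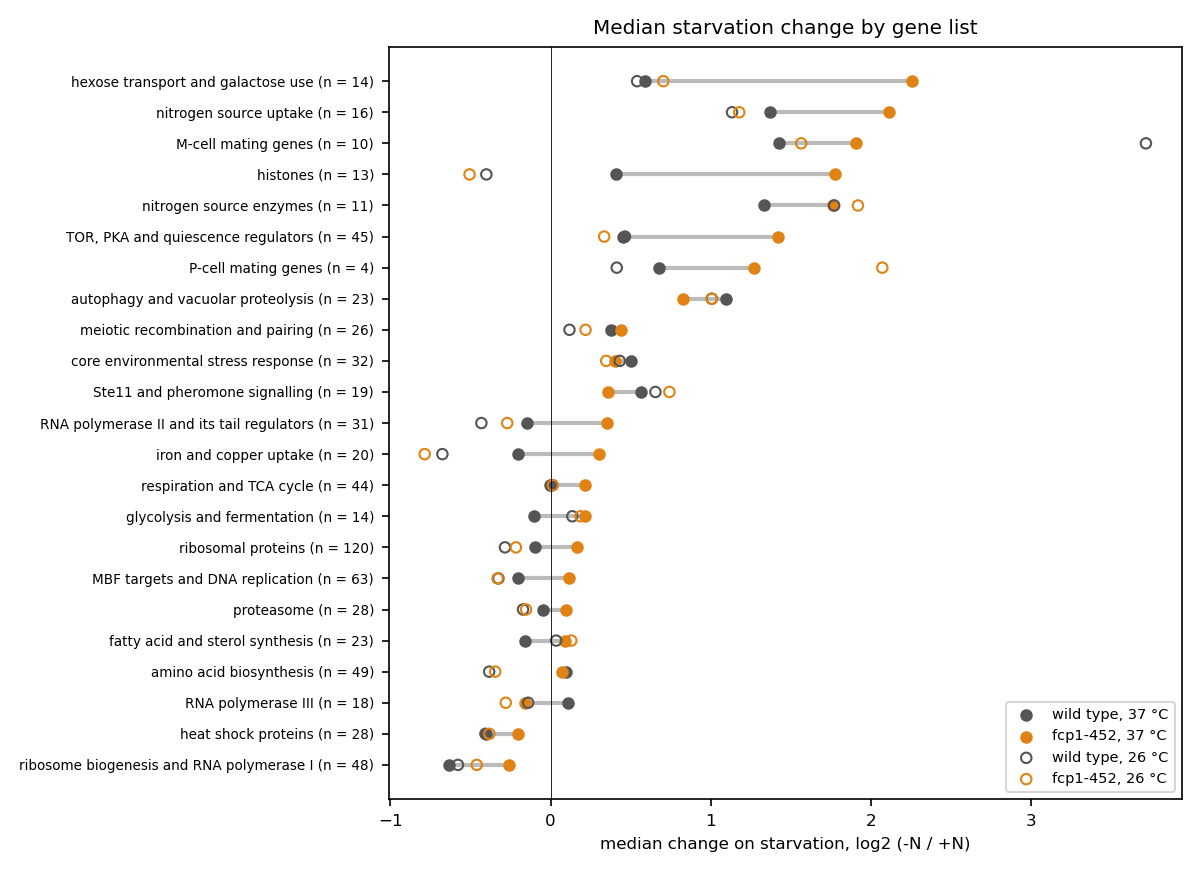
Median starvation change (log2 of the ratio without nitrogen over that with nitrogen) of 23 gene lists, with the number of probe sets in each; filled circles are 37 °C, open circles 26 °C, grey wild type and orange fcp1-452, and the bar joins the strains at 37 °C. Hexose transport (0.59 and 2.25), histones (0.41 and 1.77) and nutrient regulators (0.45 and 1.42) show the widest bars at 37 °C.

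The falls seen in fcp1-452 only included genes of heterochromatin, thiamine synthesis and the ubiquitin system. nmt1, a thiamine synthesis gene, read 1.17 with nitrogen and 0.849 without it in wild type, and 1.09 and 0.0922 in fcp1-452. The starved mutant stood alone at a low ratio, with changes of -0.46 and -3.56 (limma difference -3.08 ± 0.17 SE, adjusted p = 0.00226). tas3, which encodes a subunit of the RITS silencing complex, read 0.966 and 0.933 in wild type and 1.1 and 0.116 in the mutant (limma difference -3.10 ± 0.26 SE, adjusted p = 0.00252). The ubiquitin-conjugating enzyme gene ubc14 changed by -0.39 and -2.80, the F-box gene pof13 by 0.71 and -1.63, and the histone methylation cofactor gene pdp1 by -0.62 and -2.82. jnm1 (dynactin), set11 (a ribosomal protein methyltransferase) and mas2 had changes of 0.33 to 0.64 in wild type and -1.59 to -2.24 in fcp1-452.

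The opposite class was led by a gene of cell separation. adg2, a cell surface protein gene, read 1.61 and 0.223 in wild type and 0.392 and 1.77 in fcp1-452. The strains crossed over: wild type was the higher with nitrogen and the mutant without it, and the changes were -2.85 and 2.17 (limma difference 5.62 ± 0.46 SE, adjusted p = 0.00252). sme1, a core protein of the splicing particles, read 1.42 and 0.473 in wild type and 0.947 and 2.67 in the mutant. naa38 changed by -2.22 and 1.05. mag2, a DNA repair glycosylase gene, ran the other way (1.89 and -1.12), and limma did not call its difference (-5.03 ± 1.84 SE, adjusted p = 0.0761).

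Genes for RNA polymerase II and the enzymes that act on its tail, among them fcp1, were read as a group. fcp1 itself read 0.843 and 1.4 in wild type and 0.653 and 1.13 in fcp1-452, so the strains changed by 0.73 and 0.79 with no called difference (limma difference -0.07 ± 0.20 SE, adjusted p = 0.808). A temperature-sensitive allele acts on the protein and need not alter its transcript, so this value does not check the strain. rpb1, which encodes the subunit that carries the tail, rose in both strains and more in the mutant, from 0.652 to 1.36 in wild type and from 0.805 to 4.5 in fcp1-452 (limma difference 1.62 ± 0.34 SE, adjusted p = 0.0161). tfg1, a subunit of the initiation factor TFIIF, rose in fcp1-452 only (0.51 and 1.96), and rpb8, a subunit shared by the 3 polymerases, fell in both (-1.86 and -1.17). Of 31 probe sets, 3 rose and 7 fell in wild type and 7 rose and 6 fell in fcp1-452 (2 and 1 under quantile normalization, 12 and 5 against replicate 2). The shares in fcp1-452 are near the 20.6% and 18.8% of all probe sets. limma called 12 differences higher and 3 lower, against 20.9% and 17.7% of all probe sets.

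Stress genes did not move as a block. In the core environmental stress response, 12 of 32 probe sets rose in wild type and 10 in fcp1-452, 6 of them in both, with medians of 0.50 and 0.40. On the same list 2 fell in wild type and 6 in fcp1-452, 4 of these 6 in the class that fell in fcp1-452 only, and under quantile normalization 3 fell in fcp1-452. The shares over all probe sets were 13.9% rises and 14.7% falls in wild type, and 20.6% and 18.8% in fcp1-452. The falls of this list in fcp1-452 were thus near the share at large. The cation pump gene cta3 read 0.545 and 3.31 in wild type and 0.337 and 13.5 in the mutant (limma difference 2.70 ± 0.17 SE, adjusted p = 0.00226), while the stress transcription factor gene atf1 rose more in wild type (2.59 and 1.38). The MAP kinase phosphatase gene pyp2 rose in fcp1-452 only (0.27 and 3.24), a difference limma did not call (2.24 ± 0.77 SE, adjusted p = 0.0665). Among 28 heat shock protein probe sets, 4 rose and 6 fell in wild type and 1 rose and 3 fell in fcp1-452, with medians of -0.40 and -0.21. In wild type 11 fell against replicate 2, and in fcp1-452 7 fell under quantile normalization. hsf1, the heat shock factor gene, rose in both strains (1.74 and 1.75), and the co-chaperone gene cns1 fell in both (-1.62 and -2.61).

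The remaining lists were metabolic. Among all probe sets, 13.9% rose and 14.7% fell in wild type, and 20.6% rose and 18.8% fell in fcp1-452. The rises in fcp1-452 of the amino acid, iron and copper, and fatty acid and sterol lists lay near that strain's share. Of 49 amino acid biosynthesis probe sets, 1 rose and 3 fell in wild type and 9 rose and 8 fell in fcp1-452 (4 and 4 under quantile normalization); in wild type 5 rose against replicate 2. The serine synthesis gene ser2 fell in both strains, from 4.54 to 0.278 in wild type and from 1.23 to 0.259 in fcp1-452, where the ratio with nitrogen was already lower. The sulphate assimilation gene met16 and the tryptophan synthesis gene trp3 fell in fcp1-452 only (-0.94 and -2.46 for met16, -0.41 and -1.87 for trp3). Of 20 iron and copper uptake genes, 2 rose and 6 fell in wild type and 4 rose and 4 fell in fcp1-452, while 4 and 7 rose against replicate 2. sib2, of siderophore synthesis, fell in wild type only (-1.96 and -0.25) and the vacuolar transporter gene abc3 rose in fcp1-452 only (0.03 and 1.93). Of 44 respiration genes 1 rose and 3 fell in wild type and 2 rose and 3 fell in fcp1-452, where 7 rose and 8 fell against replicate 2 and 0 did either under quantile normalization. Of 28 proteasome genes 0 rose in either strain and 1 and 2 fell, with 4 rises in fcp1-452 against replicate 2. In glycolysis 2 and 1 of 14 rose (3 and 3 against replicate 2) and 0 fell, and of 23 fatty acid and sterol genes 0 and 5 rose and 3 and 2 fell (2 and 6, and 0 and 2, against replicate 2).

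The 26 °C arrays showed how the classes defined at 37 °C behaved at the lower temperature. Probe sets that changed in wild type only at 37 °C mostly changed in both strains at 26 °C. The median change of the 160 wild-type-only rises was 1.23 in wild type and 1.17 in fcp1-452 at 26 °C, and 91 of them (56.9%) rose in both strains. For the 163 wild-type-only falls the medians were -1.35 and -1.41, and 121 (74.2%) fell in both. These shares lay near those of the shared classes, of which 294 of 420 rises (70%) and 261 of 393 falls (66.4%) were repeated in both strains at 26 °C.

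Most changes seen in fcp1-452 only did not reach 2-fold at 26 °C. The medians there were 0.04 and 0.02 for the 361 rises and -0.15 and -0.21 for the 297 falls, and 18 (4.99%) and 19 (6.4%) moved at least 2-fold the same way in both strains. The 44 opposite probe sets followed the wild-type direction at 26 °C: 30 changed at least 2-fold that way in wild type and 27 in fcp1-452, and 0 followed the mutant's direction. Over all probe sets the correlation of the 37 °C change with the 26 °C change in the same strain was 0.830 in wild type and 0.495 in fcp1-452. Over the other scalings and baselines, which were added for this comparison after the data were seen, the share repeated in both strains ranged from 50.3% to 76% for the wild-type-only classes and from 3.56% to 6.9% for the fcp1-452-only classes. The 26 °C arrays share no sample with the 37 °C ones, but each deposited ratio was taken to a median over all 8 arrays of the set.

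**Figure D4:**
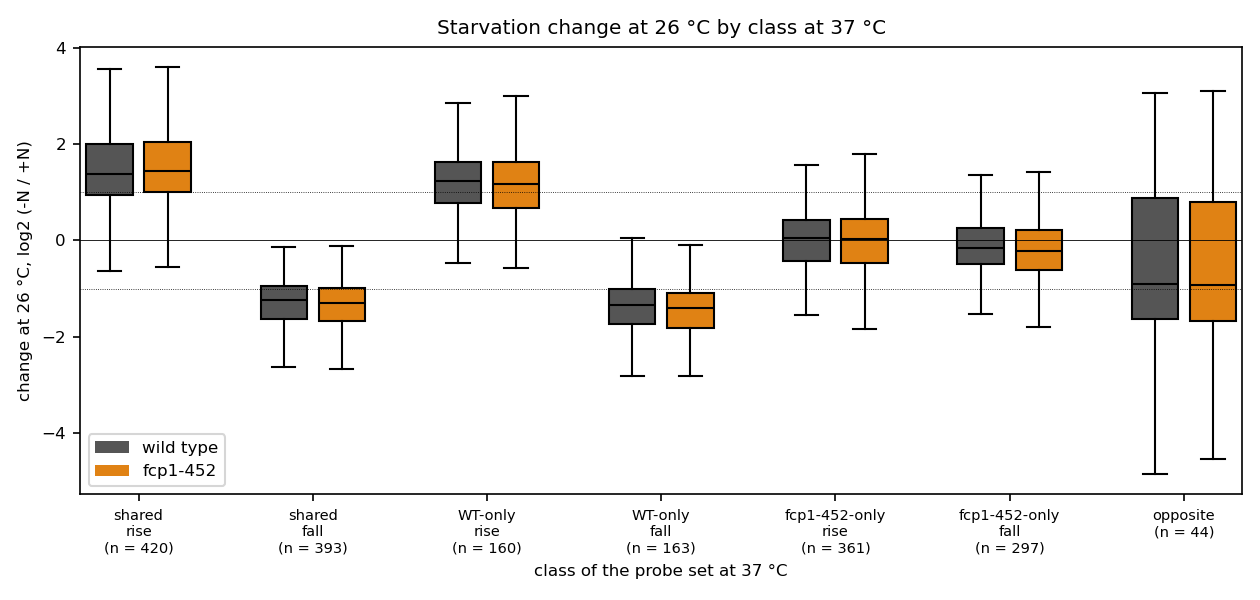
Starvation change at 26 °C (y axis, log2 of the ratio without nitrogen over that with nitrogen) of the probe sets in each class defined at 37 °C, wild type in grey and fcp1-452 in orange; boxes show the median and quartiles, whiskers reach the last value within 1.5 times the box height, and dotted lines mark 2-fold. Both wild-type-only classes have medians beyond 2-fold in both strains, while both fcp1-452-only classes have medians near 0.

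The strains lay further apart without nitrogen than with it. At 37 °C with nitrogen, 534 probe sets (10.7%) were at least 2-fold apart between the strains, and 678 (13.6%) in replicate 2. Without nitrogen 1724 were (34.5%), 851 higher in fcp1-452 and 873 lower. At 26 °C the counts were 5 with nitrogen and 23 without. These gaps use the same arrays as the changes and are given beside them as a description.

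For most of the strain-dependent probe sets the gap was present without nitrogen and not with it. This held for 89 of 160 wild-type-only rises, 106 of 163 wild-type-only falls, 249 of 361 fcp1-452-only rises and 227 of 297 fcp1-452-only falls. A gap of 2-fold with nitrogen alone, as in aat1, was found for 14, 25, 38 and 14 of them in the same order, and a gap in both media for 21, 7, 21 and 18. Where the first-set arrays with nitrogen were 2-fold apart, replicate 2 was 2-fold apart in the same direction for 29 of 35, 23 of 32, 40 of 59 and 16 of 32 probe sets.

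**Figure D5:**
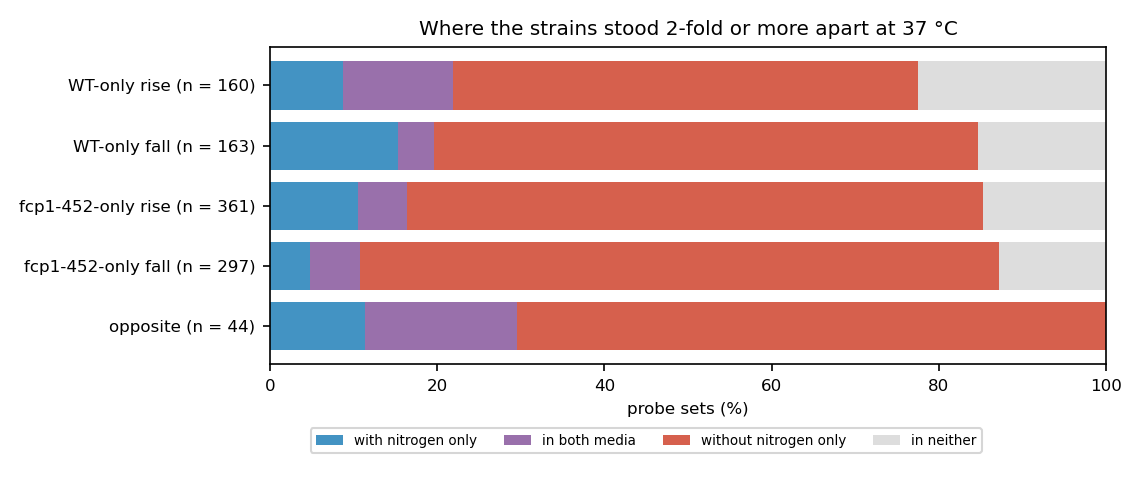
Share of the probe sets of each strain-dependent class (x axis, percent) in which wild type and fcp1-452 stood at least 2-fold apart at 37 °C with nitrogen only, in both media, without nitrogen only, or in neither. The red part, a gap without nitrogen only, is the widest in every class (89 of 160, 106 of 163, 249 of 361, 227 of 297 and 31 of 44 from top to bottom).

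Membership of a class depended on the single array with nitrogen. With replicate 2 in its place, 283 of 420 shared rises (67.4%) and 258 of 393 shared falls (65.6%) remained in their class. Of the strain-dependent classes, 75 (46.9%) and 76 (46.6%) of the wild-type-only rises and falls and 213 (59%) and 187 (63%) of the fcp1-452-only rises and falls did. limma, which uses the same arrays without nitrogen, called the strain difference for 884 of the 1025 strain-dependent and opposite probe sets (86.2%), against 38.6% of all probe sets. The choice of members fixed most of that share and it is no separate support.

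The shared classes also lay apart in gene length, which played no part in their definition. Among the 2914 probe sets with a gene length in RefSeq, the median gene span was 1878 bases. It was 2793 bases for the shared rises and 1406 bases for the shared falls. The wild-type-only classes lay on the same sides with 2171 and 1561 bases, and the fcp1-452-only classes lay closer together with 2035 and 1802. Across these genes, which are not independent, Spearman's rho of length with the change was 0.311 in wild type and 0.240 in fcp1-452 at 37 °C and 0.371 and 0.361 at 26 °C. With the difference between the strains it was 0.00573.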

How the data were processed

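Per the labels' protocols, polyA RNA was labelled with biotin and processed for Affymetrix arrays. The deposited values were linear ratios. The submitters' processing notes name RMA (robust multi-array averaging), without a version. Within each set of 8 arrays every probe set of the deposited ratios had a median of 1, so no expression level was kept and values were compared only within a probe set. The lowest ratio, 0.01, was reached by 4 of 79984 values. Signal over background is not known from ratios, and the number of arrays limits the precision. Groups came from titles and source names, because the longer description repeats 1 condition for every array.

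Ratios were put on the log2 scale and subtracted within strain, with a 2-fold threshold and no test (1 array a group). For limma 3.58.1 (R 4.3.3; lmFit and eBayes), the 16 arrays were reduced to 12 samples: the near-duplicate arrays were averaged after a shift of the first set per probe set, and the replicate number was a block. This left 3 residual degrees of freedom, with a prior of 2.75 degrees of freedom and a prior SD of 0.135. Differences between replicates 1 and 2 correlated between all 6 pairs of the 4 groups with nitrogen (r = 0.636 to 0.863), so the numbers paired these samples. The starved arrays carry no replicate number in their titles; they were put with replicate 1 because they belong to the first set, whose arrays with nitrogen are near-duplicates of replicate 1. The pairing of the starved arrays could not be checked, and the count without the block stands beside the results. Calls were made at a Benjamini-Hochberg adjusted p under 0.05. The labels do not say whether replicates were separate cultures, and p-values therefore measure only the spread of these samples, possibly technical. The fit was tested on simulated data.

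Names came from the platform annotation, updated through RefSeq (assembly ASM294v3): 2917 probe sets had 1 gene, 20 several, and 2062 are unnamed here. Of the identifiers 2914 were found in RefSeq, 113 received a newer name, and 14 genes were read by more than 1 probe set. The gene lists and classes were chosen with earlier results of these data known. Genes were named by rule, among those with 1 gene symbol, no value at the lowest ratio and the same class against replicate 2: the top 10 shared rises and falls by the smaller change, the top 8 of each one-strain class and the top 6 opposite by the strain difference, and in each of the 24 lists up to 4 by mean change and 2 by strain difference. The results of 1 list are not reported here. Alternatives were another baseline, threshold, centring, quantile normalization, the lowest ratios left out, other limma designs and each replicate left out. Promoter motifs were not analysed here.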

Additional observations from a re-analysis of the deposited data

Results flagged for a closer look

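Results are listed here where the test of the difference between strains itself, limma's interaction of strain and starvation at 37 °C, passed an adjusted p under 0.05 after Benjamini-Hochberg adjustment. That was so for 1931 of 4999 probe sets and for 37 of the 38 named genes of the strain-dependent and opposite classes. The exception was mag2. The adjusted p of the 37 lay between 0.00226 and 0.0309, and the SE of the difference between 0.165 and 0.520. The genes were chosen for their strain difference on the same arrays, so these values describe its size. All differences below are log2 changes of fcp1-452 minus wild type.

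Among genes that rose in wild type only, the difference was -2.68 for spn6, -3.01 for rev7, -2.36 for atd3 and -2.99 for mug191. It was -2.49 for cdc16, -2.14 for fbp1, -2.27 for rec6 and -1.91 for htd2. Among those that fell in wild type only it was 2.38 for cys2, 1.94 for swp1, 1.71 for ssb3 and 2.21 for prp43, and 1.61 for its8, 1.75 for ppr7, 1.71 for dph4 and 1.97 for rpa34.

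Among genes that rose in fcp1-452 only, the difference was 4.27 for aat1, 3.40 for bet1, 3.90 for rba50 and 3.21 for kei1. It was 3.08 for ams2, 3.55 for mug89, 3.22 for fkh2 and 3.15 for sap1. Among those that fell in fcp1-452 only it was -3.10 for tas3, -3.08 for nmt1, -2.75 for jnm1 and -2.39 for ubc14, and -2.29 for pof13, -2.03 for set11, -1.84 for pdp1 and -1.89 for mas2. In the opposite class it was 5.62 for adg2, 3.56 for gal1, 3.17 for naa38, 3.40 for sme1 and 2.81 for cig2.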

How the results depend on the processing

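At a 1.5-fold threshold, a looser setting by construction, 1212 probe sets rose and 1375 fell in wild type and 1499 fell in fcp1-452. The shared classes then held 787 rises and 822 falls, the wild-type-only classes 244 and 325, the fcp1-452-only falls 449, and the opposite class 210. Quantile normalization over the 8 arrays of the first set forces arrays of different spread to 1 distribution. It gave 793 rises and 798 falls in wild type and 603 rises and 620 falls in fcp1-452. The wild-type-only classes then held 215 rises and 248 falls, the fcp1-452-only classes 116 rises and 111 falls, and the opposite class 26.

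The replicate block moved the limma counts: without it 1267 changes were called in wild type, 2027 in fcp1-452 and 325 differences. With quantile normalization before the fit, 1283 changes in fcp1-452 and 79 differences were called. Leaving out each replicate in turn gave 1625 to 3291 changes in wild type, 2793 to 3579 in fcp1-452 and 1195 to 2932 differences; the lone sample left in an arm is then assumed to vary like the other groups. The cause of these shifts was not tested.

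Over the 308 changes of named genes, 5 settings of the 2-fold comparison gave 1540 values. None of the changes of 2-fold or more turned sign, while some smaller ones did, such as that of aat1 in wild type (-0.50, and 0.14 against replicate 2). For replicate 2 the naming rule, which asked for the same class, largely fixed that outcome for changes of 2-fold or more. It is no separate support. Of the values, 1028 moved by less than the spread between replicates and 512 by more, 287 of these with replicate 2 as the array with nitrogen and 192 under quantile normalization. That spread came from replicates 1 and 2 of the same probe set, so the replicate 2 setting exceeded it almost by construction. Leaving out the lowest ratios could alter no named gene, and it supplied 308 of the 1028 values. Single arrays without nitrogen and unknown signal over background limit all these values.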
